A study of Homo sapiens with 18 samples.

Results

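Genes that add, copy and remove DNA methylation were followed from human pluripotent stem cells into neural ectoderm. The 9 genes were taken by symbol from the deposited expression table: the methyltransferases DNMT1, DNMT3A and DNMT3B, their cofactors DNMT3L and UHRF1, the dioxygenases TET1, TET2 and TET3, and the glycosylase TDG. They are 9 of 37550 rows, and all 9 were among the 17033 genes tested. Messenger RNA was profiled in 18 libraries of H1, an established, wild-type human pluripotent stem cell line, as 9 groups of 2 replicates that the series calls distinct biological replicates.

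Undifferentiated cells at day 0 are called hPSC. All other groups passed through 1 day in definitive ectoderm medium with the TGF-beta receptor inhibitor A8301, the MEK inhibitor trametinib at 250 nM, the WNT secretion inhibitor C59 and the BMP receptor inhibitor LDN193189. Anterior neural ectoderm (aNE) then had a day with A8301, LDN193189, C59 at 1 µM and the ROCK inhibitor thiazovivin. Posterior neural ectoderm (pNE) had no C59 on that day but TTNPB (50 nM, an agonist of retinoic acid receptors), XAV939 (1 µM, an inhibitor of tankyrase) and FGF2 (20 ng/mL). Cells of either origin were also carried to day 4 in a forebrain medium (aNE_T, pNE_T), a midbrain medium (aNE_M, pNE_M) or a hindbrain medium (aNE_H, pNE_H). The forebrain medium began with XAV939, LDN193189 and FGF2, and what the other media held is not used here. Cells for day 2 were plated at 37500 per cm2 for both origins, and cells for day 4 at 75000 per cm2 for aNE and 150000 per cm2 for pNE, so origin and plating density cannot be told apart at day 4. Density also differs between day-2 and day-4 cells of each origin, so day and density cannot be told apart either.

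In vertebrates, methyl groups are placed on cytosines of CpG dinucleotides. DNMT3A and DNMT3B write new marks, helped in germ cells and early embryos by the catalytically inactive DNMT3L. UHRF1 binds hemimethylated DNA behind the replication fork and brings DNMT1, which copies the mark to the new strand. The TET enzymes oxidise 5-methylcytosine, and TDG cuts out the most oxidised forms for base excision repair. Pluripotent cells are known for high DNMT3B and TET1, and neural cells for DNMT3A and TET3.

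The levels are TPM, relative transcript numbers scaled for transcript length and library total, so levels of different genes can be compared. Between 13686 and 14679 genes had at least 1 TPM in a library. TPM keeps no record of read number, so the depth is unknown and no counting interval is given. Each library was closest to its own replicate, with r of 0.982 to 0.987 across genes within groups. Of 8 pluripotency markers, 8 were at or above 1 TPM in hPSC, 6 to 7 at day 2 and 3 to 4 at day 4, while of 10 neural markers 5 were in hPSC and 7 to 10 in the other groups. Not every neural marker rose. POU3F1 was 53.7 TPM in hPSC, with day-4 group means of 5.41 to 50.6 TPM. SOX2 was 191 TPM in hPSC, with day-4 group means of 71.8 to 455 TPM. LIN28A, on the pluripotency list, was at least 709 TPM in every library. The 8 mesendoderm markers together came to at most 16.7 TPM in a library except in aNE_M, with 97.3 and 117 TPM, nearly all of it MIXL1, EOMES and TBXT. The neural markers summed to 1194 to 1665 TPM in the libraries of forebrain medium and 486 to 627 TPM in those of midbrain and hindbrain medium. The neural crest and surface ectoderm markers summed to 451 and 462 TPM in hPSC, 290 and 292 TPM in aNE_T and 1077 and 1144 TPM in pNE_M. Most of these sums was 1 keratin, KRT18 (1049 and 1125 TPM in pNE_M), and 2 to 5 of the 8 markers reached 1 TPM in a library. The part of these cell types in the results was not tested. In bulk RNA, fewer cells of a type and less RNA per cell cannot be told apart.

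Differences are log2 differences of TPM + 1 with SE from limma, which shrink the change of low genes, and adjusted p is Benjamini-Hochberg over the 17033 genes. "Changed" is kept for genes with a log2 difference of at least 1 in either direction and adjusted p below 0.05. "Rose" and "fell" are used where the adjusted p passed, with the size beside them. Counts at an unadjusted 0.05 have no share of all tested genes beside them, so nothing is read from them. With 2 libraries a group, an exact permutation test of 1 gene could not reach 0.05, so the p-values rest on the spread that limma pools over all groups.

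Few of the 9 genes changed in any comparison. From hPSC to aNE, 2 of the 9 changed (13.5% of tested genes did), DNMT3B lower and TET2 higher. From hPSC to pNE, 1 of the 9 changed (12.9% of tested genes), DNMT3B lower. By adjusted p alone, 6 of 9 passed in aNE (41.5% of tested genes) and 4 of 9 in pNE (38.4%). Between pNE and aNE at day 2, 0 of the 9 changed (3.85%), and by limma 2 of 9 passed the adjusted p alone (13.6%) as well as an unadjusted 0.05. The counts are too close to the background to say anything of the family as a set, so the genes are described one by one.

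DNMT3B, one of the de novo methyltransferases, was the most abundant of the 9 in hPSC and fell at each step. Its level was 1265 and 1292 TPM in the 2 hPSC libraries, rank 125 among all genes. It was 413 and 429 TPM in aNE and 358 and 413 TPM in pNE. In aNE-derived cells at day 4 it was 158 and 161 TPM in forebrain medium, 137 and 130 TPM in midbrain medium and 135 and 125 TPM in hindbrain medium. In pNE-derived cells it was 54.2 and 61.2 TPM in forebrain medium, 93.4 and 101 TPM in midbrain medium and 69.9 and 63.6 TPM in hindbrain medium. In the order of group levels, from hPSC through aNE, pNE, aNE_T, aNE_M, aNE_H, pNE_M and pNE_H to pNE_T, the libraries of neighbouring groups overlapped only between aNE_M and aNE_H. All 6 pNE-derived day-4 libraries lay below all 6 aNE-derived ones.

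**Figure D1:**
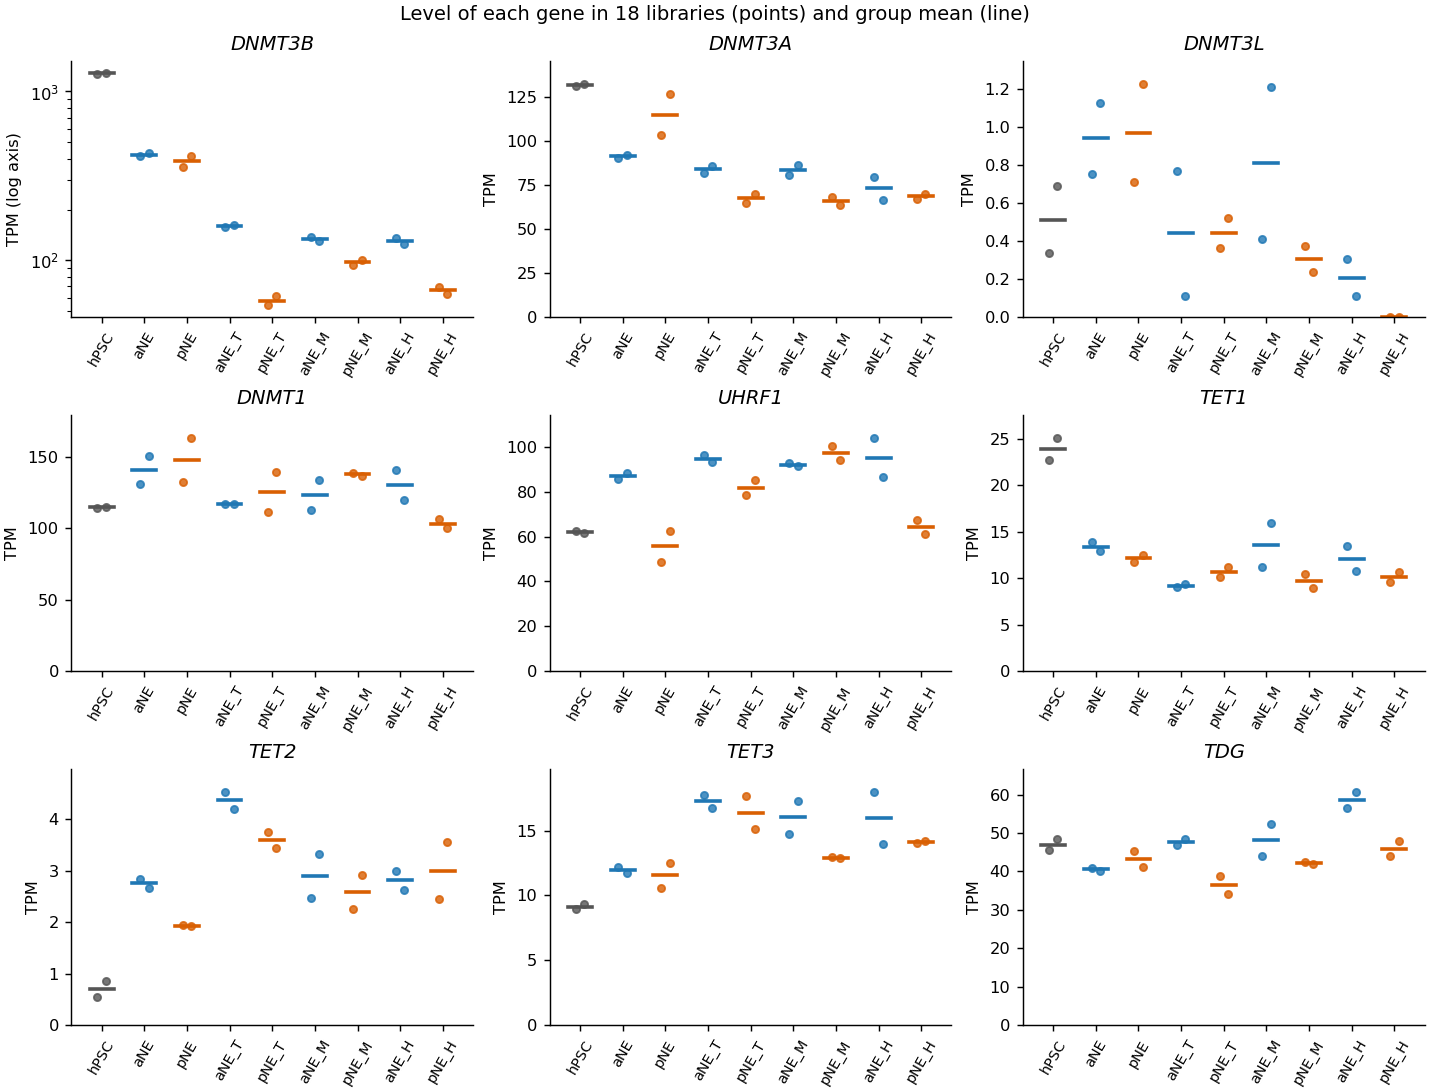
Level of each of the 9 genes in TPM (vertical axis, log scale for DNMT3B and linear from 0 for the others) by group; each point is 1 library and each line a group mean, with hPSC in grey, aNE and aNE-derived groups in blue and pNE and pNE-derived groups in orange. DNMT3B goes from 1265 and 1292 TPM in hPSC to 54.2 and 61.2 TPM in pNE_T, whereas DNMT1 stays between 100 and 163 TPM in all libraries.

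DNMT3B fell from hPSC to aNE, with a log2 difference of -1.60 ± 0.08 (SE) and a TPM ratio of 3.03 (limma adjusted p = 1.02e-08), and to pNE, with -1.73 ± 0.08 and a ratio of 3.32 (limma adjusted p = 4.84e-09). At day 2 the origins were not separated, with a pNE minus aNE difference of -0.13 ± 0.08 (limma adjusted p = 0.358). In the largest comparison, pNE_T against hPSC, the TPM ratio was 22.2, and 54 of 17033 tested genes (0.317%) had a lower log2 difference. The ratio of hPSC to the other day-4 groups was 8.01 for aNE_T, 9.58 for aNE_M, 9.82 for aNE_H, 13.2 for pNE_M and 19.2 for pNE_H.

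From day 2 to day 4, DNMT3B was the single gene of the 9 that changed in each of the 6 comparisons. Its log2 difference from aNE was -1.40 in aNE_T, -1.65 in aNE_M and -1.69 in aNE_H, where 9.03%, 12% and 10.1% of tested genes changed. From pNE it was -2.72 in pNE_T, -1.97 in pNE_M and -2.51 in pNE_H, where 10.2%, 12.7% and 12.3% of tested genes changed. By adjusted p alone, 4, 2 and 4 of the 9 passed on the aNE side (30.3%, 35.5% and 31.3% of tested genes) and 5, 3 and 4 on the pNE side (33.6%, 35.4% and 37.2%). The origins came apart in this interval. In forebrain medium pNE-derived cells had 2.77 times less DNMT3B than aNE-derived cells (log2 difference -1.45 ± 0.08, limma adjusted p = 3.38e-08), the 1 change among the 9 genes in that comparison, where 7.77% of tested genes changed. By adjusted p alone 3 of 9 passed there (21.1%). In hindbrain medium the ratio was 1.95 (-0.95 ± 0.08, limma adjusted p = 2.30e-06), and in midbrain medium 1.37 (-0.45 ± 0.08, limma adjusted p = 0.00166). Neither reached the fold limit, so 0 of the 9 genes were called in these comparisons (5.74% of tested genes in midbrain medium and 6.83% in hindbrain medium). By limma's adjusted p alone, 2 and 3 of the 9 passed there (16.6% and 21.9% of tested genes), and 4 in each at an unadjusted 0.05. The hindbrain difference passed the fold limit without aNE_H replicate 2 (-1.01) or pNE_H replicate 1 (-1.02). The midbrain difference missed the threshold when the 4 libraries were fitted alone (limma adjusted p = 0.0578).

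Whether the fall from day 2 to day 4 differed with origin was tested by the interaction. In forebrain medium the change of DNMT3B on the pNE side minus that on the aNE side was -1.32 ± 0.12 (limma adjusted p = 5.16e-06), a steeper fall from pNE. DNMT3B was the 1 gene of the 9 called there, beside 7.14% of tested genes. In hindbrain medium the difference was -0.82 (limma adjusted p = 3.15e-04), with 0 of 9 called beside 7.83% and 4 at an unadjusted 0.05. In midbrain medium it was -0.32 (limma adjusted p = 0.0917), with 0 of 9 called beside 7.02% and 3 at an unadjusted 0.05. It passed without pNE replicate 1 (limma adjusted p = 0.0333). By adjusted p alone 3, 2 and 2 of the 9 passed in forebrain, midbrain and hindbrain medium (12.3%, 13.9% and 16.1% of tested genes). Forebrain medium had the highest mean DNMT3B of the aNE-derived groups and the lowest of the pNE-derived groups. The difference of pNE_H from pNE_T was 0.21 (limma adjusted p = 0.107) and passed with median-ratio scaling (0.0300) or quantile normalization (0.0421). Differences from aNE_T were -0.26 in aNE_M and -0.29 in aNE_H (limma adjusted p = 0.0302 and 0.0184). The first missed the threshold with median-ratio scaling (0.0547), the second with only the compared libraries (0.0547). DNMT3B in aNE_M, the group with mesendoderm markers, overlapped that in aNE_H, where those markers came to at most 3.40 TPM. The part of mesendoderm cells in the DNMT3B levels was not tested.

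DNMT3A, the other de novo enzyme, was below DNMT3B in hPSC, where the ratio of DNMT3B to DNMT3A was 9.69 ± 0.10 (SD, n = 2), and fell less. It was 131 and 132 TPM in hPSC, 90.3 and 92.3 TPM in aNE and 103 and 127 TPM in pNE. At day 4 it lay between 66.6 and 86.5 TPM in the 6 aNE-derived libraries and between 63.8 and 70.2 TPM in the 6 pNE-derived ones. All day-4 libraries were below all hPSC and day-2 libraries. It fell from hPSC by a log2 difference of -0.53 ± 0.10 in aNE (limma adjusted p = 9.68e-04), of -0.65, -0.65 and -0.85 in aNE_T, aNE_M and aNE_H, and of -0.96, -0.99 and -0.93 in pNE_T, pNE_M and pNE_H, all under the fold limit. It passed that limit in pNE_T without replicate 2 (-1.02) and with median-ratio scaling (-1.003), and in pNE_M without replicate 1 (-1.04) and with a pseudocount of 0.1 (-1.0004). In pNE the difference from hPSC was -0.20 ± 0.10 and missed the threshold (limma adjusted p = 0.127). It passed without pNE replicate 2 (limma adjusted p = 0.0206) and with median-ratio scaling (limma adjusted p = 0.0141). From pNE to day 4 it fell by a log2 difference of -0.76, -0.79 and -0.73 in forebrain, midbrain and hindbrain medium.

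The later fall of DNMT3A differed with origin in forebrain medium (interaction -0.63, limma adjusted p = 0.00890) and midbrain medium (-0.66, limma adjusted p = 0.00686), but not past the threshold in hindbrain medium (-0.41, limma adjusted p = 0.0709). The last passed without aNE_H replicate 2 (limma adjusted p = 0.0257) or without pNE replicate 1 (limma adjusted p = 0.0146). Direct differences between origins in DNMT3A were small and unstable. They were 0.32 at day 2, -0.31 in forebrain medium and -0.34 in midbrain medium, with limma adjusted p of 0.0498, 0.0414 and 0.0343. The day-2 difference was lost without aNE replicate 1 (0.197), aNE replicate 2 (0.152) or pNE replicate 2 (0.304). Left with 3 of the 4 libraries, whichever was dropped, the forebrain difference had a limma adjusted p of 0.0666 to 0.213 and the midbrain difference 0.0562 to 0.193.

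Together, the transcripts of the de novo enzymes shifted in number and in make-up. DNMT3A and DNMT3B summed to 1410 ± 19.6 TPM (SD, n = 2) in hPSC, 513 ± 12.9 in aNE and 500 ± 55.3 in pNE. At day 4 the sum was 243, 217 and 203 TPM in aNE_T, aNE_M and aNE_H and 125, 163 and 135 TPM in pNE_T, pNE_M and pNE_H. DNMT3B made up 90.6% ± 0.090 of this sum in hPSC, 82.2% in aNE and 77.1% in pNE. Its share was 61.5% to 65.6% in the aNE-derived groups, 59.6% in pNE_M, 49.3% in pNE_H and 46.1% in pNE_T. In pNE_T the level of DNMT3A thus exceeded that of DNMT3B in both libraries.

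**Figure D2:**
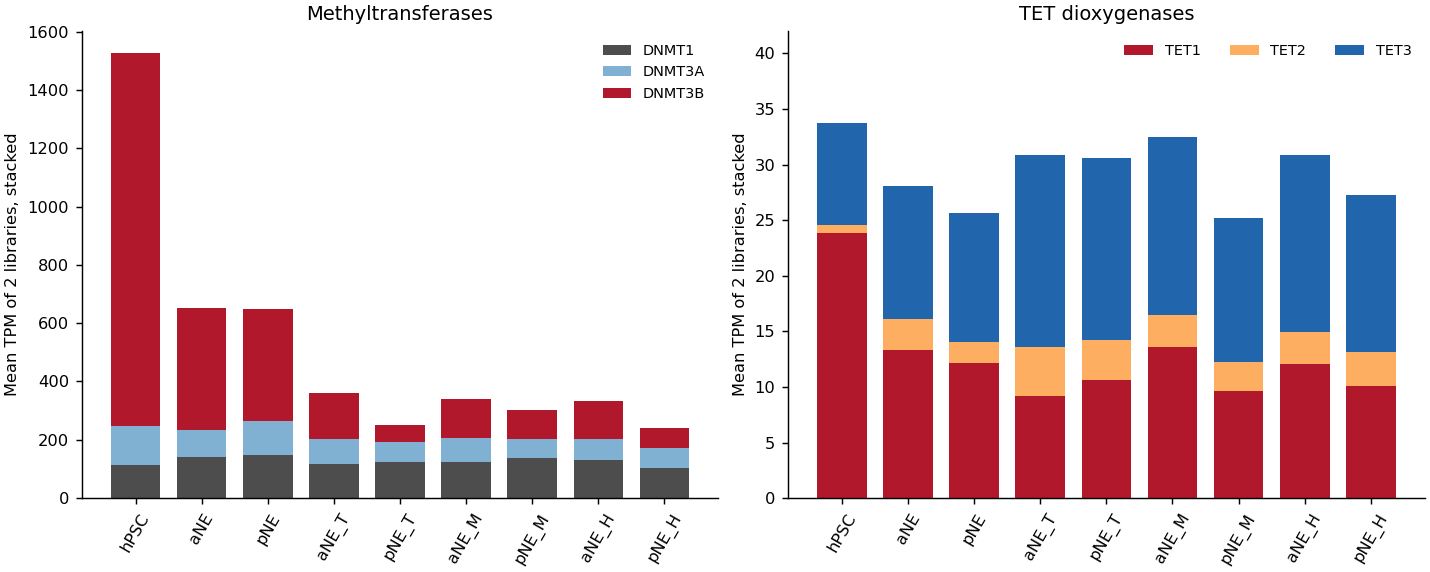
Mean TPM of 2 libraries per group, stacked, for the methyltransferases DNMT1, DNMT3A and DNMT3B (left) and the dioxygenases TET1, TET2 and TET3 (right), both axes linear from 0 and without error bars. The left stack shrinks with the red DNMT3B part, from 1278 TPM of DNMT3B in hPSC to 57.7 TPM in pNE_T, while the right stack keeps a sum between 25.2 and 33.7 TPM as the TET1 part narrows and the TET3 part widens.

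DNMT3L, the cofactor without catalytic activity, was barely present. It was at most 1.22 TPM and reached 1 TPM in 3 of 18 libraries, 1 each of aNE, pNE and aNE_M, and it was listed at 0 in both pNE_H libraries. Its difference between pNE_H and pNE was -0.96 (limma adjusted p = 0.0149), and this was lost without pNE replicate 2 (0.110) or either pNE_H replicate (0.0565 and 0.0589). Replicates differed widely at these levels, for example 0.77 and 0.11 TPM in aNE_T. DNMT3L passed the low-value filter only through aNE, pNE and aNE_M, its highest groups, so its calls carry no weight. It is part of the count by adjusted p for pNE_H against pNE.

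The maintenance enzyme DNMT1 held its level. It was 115 and 115 TPM in hPSC, 131 and 151 TPM in aNE and 133 and 163 TPM in pNE. Day-4 libraries lay between 100 and 141 TPM. Its highest and lowest groups, pNE and pNE_H, differed 1.43-fold, the smallest ratio among the 8 genes with a level above 0 in every group. The rise of 0.36 ± 0.13 from hPSC to pNE (limma adjusted p = 0.0420) was lost without hPSC replicate 1 (0.132), hPSC replicate 2 (0.125) or pNE replicate 2 (0.310). Its fall from pNE to pNE_H (-0.51, limma adjusted p = 0.00673) was lost without pNE replicate 2 (0.0804). As DNMT3B fell around it, DNMT1 went from 7.54% of the summed TPM of the methyltransferases in hPSC to 50.0% in pNE_T.

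UHRF1, which brings DNMT1 to newly copied DNA, differed between origins at day 2. It was 62.5 and 61.8 TPM in hPSC, 85.7 and 88.5 TPM in aNE and 48.7 and 62.6 TPM in pNE. Both pNE libraries were below both aNE libraries and spanned the hPSC level. UHRF1 rose by 0.48 ± 0.11 from hPSC to aNE (limma adjusted p = 0.00341), and its difference from hPSC to pNE was -0.17 ± 0.11 (limma adjusted p = 0.258). The latter passed without pNE replicate 2 (-0.35, limma adjusted p = 0.0247). The difference of pNE from aNE was -0.65 ± 0.11 (limma adjusted p = 0.00138), and in a fit of these 4 libraries alone it missed the threshold (0.133).

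At day 4 UHRF1 was 96.4 and 93.5 TPM in aNE_T, 92.9 and 91.8 TPM in aNE_M and 104 and 86.8 TPM in aNE_H. It was 78.5 and 85.4 TPM in pNE_T, 101 and 94.2 TPM in pNE_M and 67.4 and 61.2 TPM in pNE_H. The midbrain medium thus had UHRF1 at the same height for both origins, and the rise from pNE to pNE_M was 0.81 (limma interaction against the aNE side 0.73, adjusted p = 0.00683). UHRF1 also rose from pNE to pNE_T by 0.56 (limma adjusted p = 0.00153, and 0.102 with the 4 libraries alone). The forebrain interaction was 0.44 (limma adjusted p = 0.0956) and passed with median-ratio scaling (0.0323) or quantile normalization (0.0383). From pNE to pNE_H the difference was 0.21 (limma adjusted p = 0.149) and passed with either scaling (0.0224 and 0.0196). In hindbrain medium the difference of pNE-derived from aNE-derived cells was -0.56 (limma adjusted p = 0.00239, and 0.107 with the 4 libraries alone).

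Genes of DNA replication were counted in the same comparisons by adjusted p. Of 17 tested, 8 fell and 0 rose in pNE_H against aNE_H (21.9% of tested genes passed in either direction), and their summed level was 1821 and 1854 TPM in pNE_H against 2240 and 2156 TPM in aNE_H. In pNE against aNE, where UHRF1 was also lower, 3 of 17 fell and 0 rose (13.6%). In pNE_M against aNE_M, where UHRF1 differed by 0.08, 4 of 17 rose and 0 fell (16.6%). In the forebrain comparison, pNE_T against aNE_T, UHRF1 differed by -0.21. The summed replication level there was higher in pNE_T, at 2035 and 1973 TPM against 1900 and 1865 TPM in aNE_T. This sum was highest in hPSC, at 2608 and 2661 TPM, where UHRF1 was 62.5 and 61.8 TPM. The part of replication in the UHRF1 levels was not tested. Against hPSC, CCNE1, the cyclin that starts S phase, and MCM5, a subunit of the replicative helicase, were changed lower in 5 of the 6 day-4 groups each, and the other 15 genes of the list in 0 of them. Of all tested genes, 17.2% to 21.4% changed in these groups, so the list did not exceed that share. MCM5 went from 234 ± 5.6 TPM in hPSC to between 94.4 and 118 TPM at day 4.

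Because DNMT1 and UHRF1 are known to be made with the replication machinery, promoter windows (250 bases before to 50 after a start site, RefSeq, GRCh38.p14) were searched for letters of the E2F type. The letters, chosen after the levels were known, were TTTCCCGC, TTTCGCGC, TTTGCCGC and TTTGGCGC on either strand, and 3.31% of all 35116 windows hold at least 1. The table has 19 windows for 8 of the 9 genes. A match was found in 3 of the 19, the single DNMT1 window and 2 of the 3 UHRF1 windows. The single DNMT3B window lies at an internal start site, 17467 bases downstream of the gene's start, so the start of that gene was not searched. The start sites of the 3 UHRF1 windows lie 6421, 7064 and 7287 bases downstream of that gene's start. Those of the 2 TET3 windows lie 1279 and 19061 bases downstream. The starts of UHRF1 and TET3 were thus not searched either, and both UHRF1 matches are at internal start sites. The 30 bases around each match are shown, 5′ to 3′ on the gene's strand, with the matching letters in capitals.
DNMT1, chr19:10194937-10194966, minus strand: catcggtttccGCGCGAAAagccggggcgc
UHRF1, chr19:4909476-4909505, plus strand: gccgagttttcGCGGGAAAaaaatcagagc
UHRF1, chr19:4909973-4910002, plus strand: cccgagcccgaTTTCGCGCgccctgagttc
The DNMT1 match covers bases 249 to 256 of its window and so spans the start site, which follows the first 250 bases. The UHRF1 matches cover bases 237 to 244 and 91 to 98 of their windows, before the start sites. A match describes the letters only. The genes that share them did not share a pattern of level, with r = 0.14 between DNMT1 and UHRF1 over 9 group means of log2(TPM + 1), given as a description.

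TET1, the TET enzyme of pluripotent cells, fell from hPSC in all 8 other groups. It was 22.7 and 25.1 TPM in hPSC, 13.8 and 12.9 TPM in aNE and 11.8 and 12.5 TPM in pNE. Day-4 libraries lay between 8.96 and 16.0 TPM, so no library of another group reached the hPSC level. The log2 difference was -0.79 ± 0.15 in aNE and -0.92 ± 0.15 in pNE. It passed the fold limit in aNE_T (-1.28), pNE_T (-1.09), pNE_M (-1.22) and pNE_H (-1.16), and not in aNE_M (-0.79) or aNE_H (-0.93). In aNE_M a fit of the 4 libraries alone missed the p threshold (limma adjusted p = 0.0713), with replicates of 11.2 and 16.0 TPM. Without aNE_M replicate 2 it was -1.03 (limma adjusted p = 2.05e-04). In aNE_H it was -1.00007 without hPSC replicate 1 and -1.08 without aNE_H replicate 1.

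TET2 went the other way from a very low start. It was 0.54 and 0.85 TPM in hPSC, 2.85 and 2.67 TPM in aNE and 1.95 and 1.92 TPM in pNE. Its highest levels were in forebrain medium, at 4.52 and 4.21 TPM in aNE_T and 3.76 and 3.43 TPM in pNE_T. In the other 4 day-4 groups it lay between 2.25 and 3.56 TPM. No hPSC library overlapped any other group. The rise from hPSC was 1.15 ± 0.18 in aNE (limma adjusted p = 2.44e-04) and 0.79 ± 0.18 in pNE (limma adjusted p = 0.00390), and 1.67, 1.19, 1.17, 1.44, 1.08 and 1.23 in aNE_T, aNE_M, aNE_H, pNE_T, pNE_M and pNE_H. In pNE_M it stood under the fold limit without hPSC replicate 1 (0.95) or pNE_M replicate 2 (0.94). In pNE it passed the fold limit with a pseudocount of 0.1 (1.38).

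TET3, the TET enzyme of neural tissue, rose in every day-4 group. It was 8.92 and 9.33 TPM in hPSC, 12.2 and 11.8 TPM in aNE and 10.6 and 12.5 TPM in pNE. At day 4 it lay between 14.01 and 17.96 TPM in aNE-derived libraries and between 12.9 and 17.7 TPM in pNE-derived ones, all above every day-0 and day-2 library. The rise from hPSC was 0.85, 0.75 and 0.74 in aNE_T, aNE_M and aNE_H and 0.78, 0.46 and 0.58 in pNE_T, pNE_M and pNE_H, each under 2-fold. That in pNE_M missed the p threshold without hPSC replicate 1 (limma adjusted p = 0.0568). At day 2 the difference from hPSC was 0.36 ± 0.13 in aNE (limma adjusted p = 0.0406, and 0.0925 to 0.155 with any 1 of the 4 libraries left out) and 0.31 in pNE (0.0784).

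As a sum, the TET transcripts moved little while their make-up turned over. The summed level was 33.7 ± 2.2 TPM (SD, n = 2) in hPSC and between 25.2 and 32.5 TPM in the other groups. TET1 was 70.9% ± 0.37 of it in hPSC, 47.6% in aNE, 47.4% in pNE and 29.9% to 41.5% at day 4. TET3 went from 27.1% in hPSC to 56.0% in aNE_T, and TET2 from 2.05% to 14.2%. In all 12 day-4 libraries TET3 was above TET1.

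TDG, the glycosylase that removes oxidised methylcytosine, stayed within 34.1 to 60.6 TPM over all libraries. It was 45.5 and 48.4 TPM in hPSC, 40.8 and 40.2 TPM in aNE and 45.4 and 41.2 TPM in pNE. It was highest in aNE_H, at 56.5 and 60.6 TPM, and lowest in pNE_T, at 38.8 and 34.1 TPM. The remaining day-4 groups lay between 41.9 and 52.4 TPM. From aNE to aNE_H it rose by 0.52 ± 0.09. Levels in pNE-derived cells differed from those in aNE-derived cells by -0.38 in forebrain medium (limma adjusted p = 0.0104) and -0.34 in hindbrain medium (limma adjusted p = 0.0190), without overlap of the libraries. The forebrain difference was lost without aNE_T replicate 2 (0.0717) or pNE_T replicate 2 (0.107), and the hindbrain difference without aNE_H replicate 2 (0.115) or pNE_H replicate 1 (0.123).

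**Figure D3:**
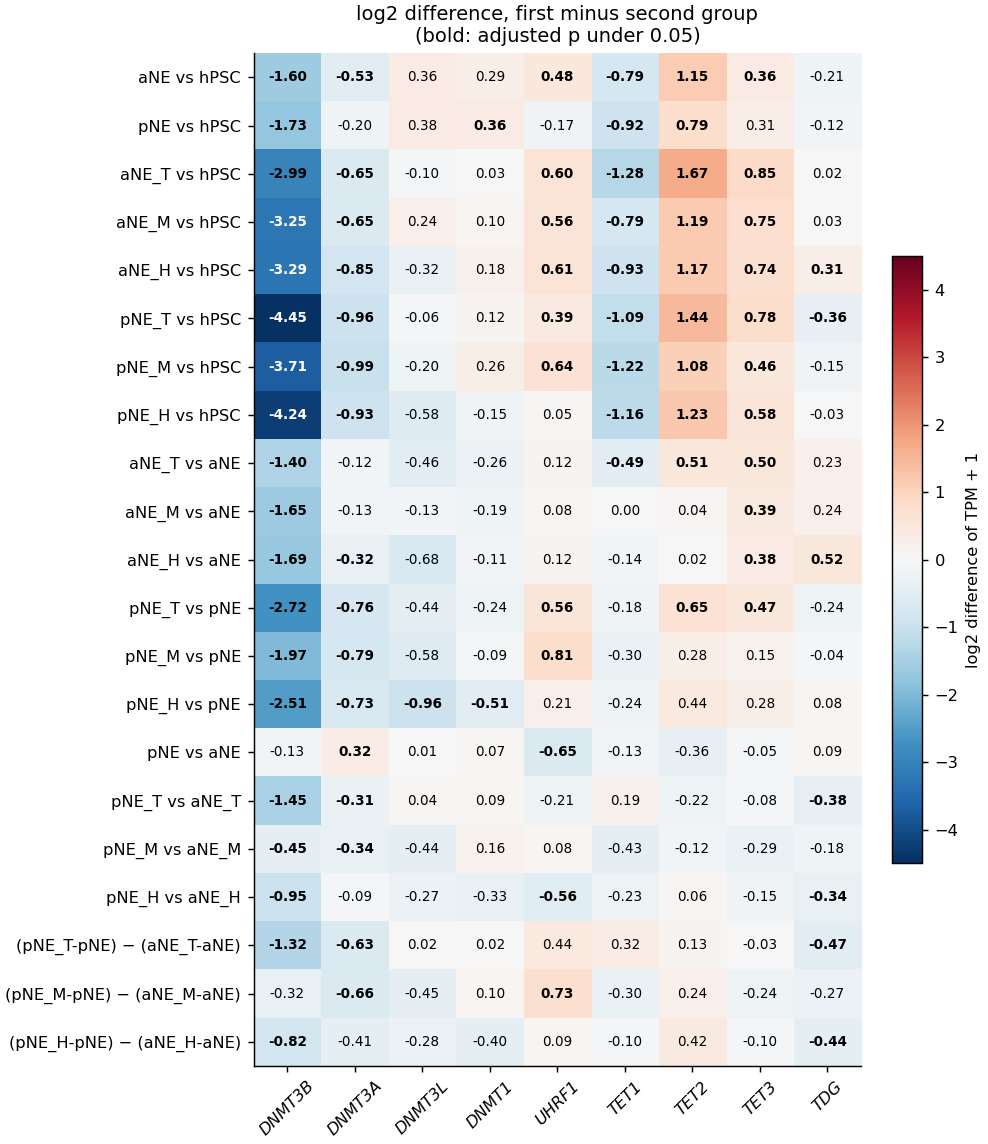
Log2 difference of TPM + 1, first group minus second, for each gene (columns) in 21 of the comparisons (rows), coloured from blue (lower) to red (higher), with bold numbers at a limma adjusted p under 0.05. The DNMT3B column is negative in every row, from -0.13 for pNE against aNE to -4.45 for pNE_T against hPSC, TET1 is negative and TET2 and TET3 positive in all 8 rows against hPSC, and DNMT1 passes in 2 rows.

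Against hPSC, the day-4 groups thus had a common set of calls. In aNE_T 3 of 9 changed (21.0% of tested genes), in aNE_M 2 (17.2%), in aNE_H 2 (17.7%), in pNE_T 3 (21.4%), in pNE_M 3 (18.2%) and in pNE_H 3 (20.3%). DNMT3B was lower and TET2 higher in all 6, and the third call was TET1. By adjusted p alone 6, 6 and 7 of 9 passed in aNE_T, aNE_M and aNE_H (52.7%, 45.8% and 45.5% of tested genes) and 7, 6 and 5 in pNE_T, pNE_M and pNE_H (52.5%, 46.7% and 50.8%). These 6 comparisons share the hPSC libraries, so their likeness is no independent result.

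The media were also compared within each origin. By limma 0 of the 9 genes changed in any of the 6 comparisons. For midbrain against forebrain, hindbrain against forebrain and hindbrain against midbrain medium, 10.1%, 6.60% and 4.92% of tested genes changed in aNE-derived cells and 8.60%, 5.03% and 5.99% in pNE-derived cells. In the same order, 2, 2 and 0 of 9 passed limma's adjusted p alone in aNE-derived cells (32.5%, 27.2% and 14.2% of tested genes) and 1, 2 and 3 of 9 in pNE-derived cells (28.5%, 18.2% and 19.7%). At an unadjusted 0.05 the counts were 3, 4 and 1, and 4, 3 and 3, without a share of all tested genes to read them against. The log2 difference of DNMT3B was 0.74 for pNE_M against pNE_T and -0.54 for pNE_H against pNE_M. The second of these missed the threshold with the 4 libraries alone (limma adjusted p = 0.0545).

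Proteins that direct the writers were counted next. Of 18 recruitment and maintenance partners, 4 changed lower and 0 higher in aNE, 3 lower and 0 higher in pNE, and 4 to 5 lower and 0 to 1 higher in the day-4 groups, all against hPSC. Of all tested genes, 13.5% changed in aNE, 12.9% in pNE and 17.2% to 21.4% in the day-4 groups. The median log2 difference of the 18 at day 4 was -0.33 to -0.18, beside 0.00 to 0.08 for all tested genes. CDCA7L and DPPA4 changed lower in 6 of 6 day-4 groups. So did DPPA2 and DPPA3, but these passed the low-value filter only through hPSC, so their calls carry no weight and are part of the counts and medians above. DPPA4, a chromatin protein of pluripotent cells that is also on the pluripotency list, was at 509 ± 11 TPM in hPSC. At day 2 it was 133 TPM (aNE) and 209 TPM (pNE), and at day 4 between 60.5 and 92.2 TPM. DPPA3, known to keep UHRF1 off chromatin, was 2.23 ± 1.5 TPM in hPSC and at most 0.0988 TPM in any other group mean. CDCA7L fell from 117 ± 6.0 TPM to between 23.1 and 40.9 TPM at day 4. The other calls, named after their values were seen, were CDCA7, which binds the remodeller HELLS, lower in aNE_T, and the histone methyltransferase NSD2, higher in aNE_T and pNE_T.

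The supply of methyl groups moved gene by gene. Of 15 methyl donor and one-carbon genes, 0 to 2 changed higher and 0 to 2 lower in the comparisons with hPSC, where 12.9% to 21.4% of tested genes changed. MTHFD1, a folate-cycle enzyme, was at 188 ± 2.2 TPM in hPSC. At day 2 its mean was 74.5 TPM (aNE) and 140 TPM (pNE), and it changed lower in 5 of 6 day-4 groups. TYMS, which makes thymidylate, went from 107 ± 1.8 TPM to between 199 and 297 TPM at day 4, changed higher in 4 of 6 groups. NNMT, which spends S-adenosylmethionine on nicotinamide, was 0.0415 TPM in hPSC. It reached 22.4 ± 2.5 TPM in pNE_T, with 8.15 ± 5.0 TPM in pNE_H and 4.99 ± 1.6 TPM in pNE_M. In aNE-derived groups it was 0.973 to 1.60 TPM. Between origins NNMT was higher by 3.30 ± 0.40 in forebrain medium (limma adjusted p = 4.61e-05), 1.59 in midbrain medium (0.0154) and 2.01 in hindbrain medium (0.00278). It was the single gene of the 15 that changed in each. Of all tested genes, 7.77%, 5.74% and 6.83% changed there, so the count was near that share.

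**Figure D4:**
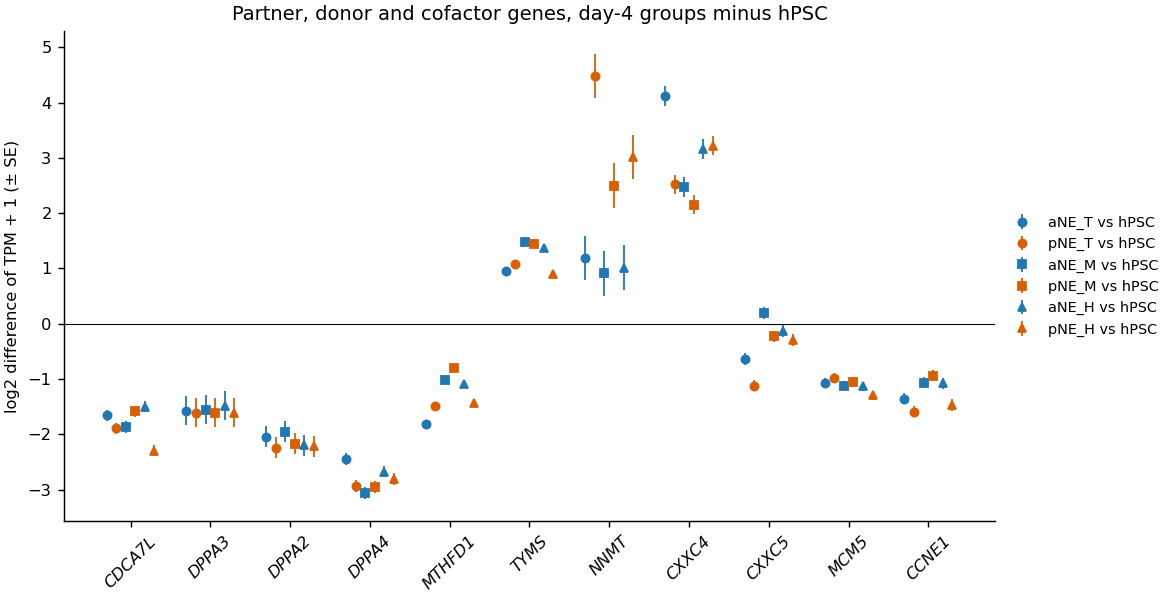
Log2 difference of TPM + 1 from hPSC with its SE (vertical axis) for 11 partner, donor, cofactor and replication genes (horizontal axis) in the 6 day-4 groups, blue for aNE-derived and orange for pNE-derived, with circles for forebrain, squares for midbrain and triangles for hindbrain medium. NNMT separates by colour, with orange points up to 4.48, and CXXC4 is highest in aNE_T at 4.11.

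Among 11 cofactors and partners of the TET enzymes, 0 to 2 changed higher and 0 to 2 lower against hPSC (12.9% to 21.4% of tested genes). CXXC4, a CXXC-domain protein known to bind CpG DNA and TET2, was 0.733 ± 0.027 TPM in hPSC, with 3.85 TPM (aNE) and 1.504 TPM (pNE) at day 2. At day 4 it was 6.73 to 29.1 TPM, changed higher in 6 of 6 groups. It was highest in aNE_T, the group with the highest TET2. Its relative CXXC5 was lower in aNE (46.9 TPM) and pNE (54.2 TPM) than in hPSC (115 ± 2.4 TPM), and in midbrain and hindbrain medium it was back at 94.5 to 131 TPM. The lowest day-4 group mean of CXXC5, 52.2 TPM, was in forebrain medium, and CXXC5 changed lower in 1 of 6 day-4 groups. The 2-oxoglutarate producing IDH2, named after its value was seen, changed higher in pNE_T.

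Downstream of TDG, 0 of 12 base excision repair genes changed at day 2 by fold and p. Of all tested genes, 13.5% changed in aNE and 12.9% in pNE. By limma's adjusted p alone 4 and 5 were lower in aNE and pNE, where 41.5% and 38.4% of tested genes passed in either direction. At an unadjusted 0.05, 4 and 6 of the 12 passed. At day 4 the glycosylases NTHL1 and UNG, named after their values were seen, changed lower in aNE_T, pNE_T and pNE_H. In these groups 21%, 21.4% and 20.3% of tested genes changed. UNG went from 192 ± 3.7 TPM in hPSC to 74.0 to 122 TPM at day 4. Of 7 methyl-CpG readers, 5 rose by adjusted p in aNE and 5 in pNE, and 3 to 5 rose in each day-4 group, with 0 falling in any. Of all tested genes, 41.5% passed in aNE, 38.4% in pNE and 45.5% to 52.7% in the day-4 groups, in either direction. The rises were small, with ZBTB38 in aNE_T (1.37, chosen after its value was seen) the only one past 2-fold. MBD1 went from 31.9 ± 0.13 TPM in hPSC to between 43.8 and 59.5 TPM elsewhere.

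Germline genes known to be silenced by promoter methylation were mostly too low to be tested, 11 of the 14 listed. DPEP3 passed the low-value filter only through hPSC, so its lower calls carry no weight. It was 3.77 ± 1.3 TPM in hPSC and at most 0.149 TPM in any day-4 group mean. STK31, chosen after its value was seen, was 0.186 TPM in hPSC and 1.79 ± 1.0 TPM in pNE_H, where it changed higher (1.18, limma adjusted p = 0.0152). It was picked for this value and lies close to the low-value filter, so the call carries no weight. DAZL, chosen in the same way, was 2.85 ± 0.25 TPM in aNE against 0.577 TPM in hPSC and 0.251 TPM in pNE. It passed the filter only through aNE, so its higher level there carries no weight either. Methylation itself was not analysed here.

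The genes most like the moving members were sought among 10879 to 10880 genes with a mean of at least 5 TPM, by Pearson r over the 9 group means, given as a description without a test. For DNMT3B these were HK1 (r = 0.986), MREG (0.984) and TMEM198 (0.984). HK1 ranged from 163 TPM in hPSC down to 30.0 TPM in its lowest group. For TET1 they were PALB2 (0.971), OAZ2 (0.960) and PRKCI (0.954), and for TET2 DMWD (0.985), SKIDA1 (0.981) and RABL2A (0.979). Among the 9 genes themselves, DNMT3B and DNMT3A had r = 0.94 and TET2 and TET3 r = 0.91, while DNMT3B and TET3 had r = -0.81. All these points share the hPSC group.

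In GRCh38.p14 the genes lie as follows. DNMT3B is at chr20:32762385-32809356, DNMT3A at chr2:25227874-25342590 and DNMT3L at chr21:44246339-44261897. DNMT1 is at chr19:10133346-10194953 and UHRF1 on the same chromosome at chr19:4903080-4962154. TET1 is at chr10:68560337-68694487, TET2 at chr4:105145875-105279803, TET3 at chr2:73983631-74135498 and TDG at chr12:103965872-103988874. The values are sums over each gene, so isoforms were not separated, and use of the strand was not stated. In the GENCODE annotation DNMT1 overlaps S1PR2, which was at most 16.3 TPM, and TET2 overlaps an antisense gene, TET2-AS1. How far reads were shared between such genes was not tested.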

How the data were processed

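The labels state poly-T selection of mRNA and random hexamer priming. The authors deposited 1 table of TPM per gene and library. The submitters' processing notes name bcl2fastq, FastQC, Trim Galore, kallisto, deepTools and hg38, without saying which made the table. The annotation and the use of strand are not given in the sources used here. Of 37550 rows, the 17033 that reached 1 TPM in 2 or more libraries were analysed as log2(TPM + 1). All 18 libraries entered a limma fit (3.58.1, R 4.3.3) with group means, 9 residual degrees of freedom and a variance trend, with two-sided p adjusted by Benjamini-Hochberg in each of 27 comparisons. The fit was tested on simulated data. The 9 genes and 11 further lists were chosen with earlier results of these data known. Named list genes changed one way in at least 4 of 6 day-4 comparisons with hPSC, or in both at day 2. A result counted within the lists is not reported here by name. Alternatives were a pseudocount of 0.1, a minimum of 0 or of 5 TPM, quantile normalization, median-ratio scaling, a replicate block, only the compared libraries, adjusted p alone and leaving out each replicate. Over 36 pairs of groups, deviations of same-numbered replicates had r of -0.090 to 0.076, so the numbers do not pair libraries.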

Additional observations from a re-analysis of the deposited data

Results flagged for a closer look

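By limma's interaction test, the change from day 2 to day 4 was unequal for the 2 origins in 7 cases (log2 difference of the changes, pNE side minus aNE side). In forebrain medium the differences were -1.32 for DNMT3B (adjusted p = 5.16e-06), -0.63 for DNMT3A (0.00890) and -0.47 for TDG (0.0338). In midbrain medium they were -0.66 for DNMT3A (0.00686) and 0.73 for UHRF1 (0.00683). In hindbrain medium they were -0.82 for DNMT3B (3.15e-04) and -0.44 for TDG (0.0417). Plating density changed with origin in each, and the effects of origin and density cannot be told apart. Leaving out 1 library ended the TDG call in 6 of 8 cases in forebrain medium (either aNE, either aNE_T, pNE replicate 1 or pNE_T replicate 2, adjusted p 0.0744 to 0.135). It did so in 6 of 8 cases in hindbrain medium (either aNE, either aNE_H, pNE replicate 1 or pNE_H replicate 1, 0.0545 to 0.132).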

How the results depend on the processing

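The number of the 9 genes changed was the same with no filter, the replicate block (2 in aNE against hPSC, 1 in pNE against hPSC, 3 in pNE_T against hPSC and likewise in the other comparisons) and only the compared libraries. Median-ratio scaling gave 4 in pNE_T against hPSC (DNMT3A added) and moved no other count. The replicate numbers share no pairing, and no count moved under the block. A filter at 5 TPM removes TET2 and DNMT3L and left 1 gene changed in aNE, aNE_M and aNE_H and 2 in the other day-4 groups against hPSC. A pseudocount of 0.1 gave 2 in pNE against hPSC (TET2 added), 2 in pNE_H against pNE and 1 in pNE_H against pNE_T (DNMT3L added in both), and 4 in pNE_M (DNMT3A added) and pNE_H (DNMT3L added) against hPSC. The DNMT3L calls carry no weight, as that gene passed the low-value filter only through its highest groups. Quantile normalization gave 2 in pNE against hPSC (TET1 added, -1.02). Leaving out 1 replicate gave 0 to 1 in pNE_H against aNE_H and 1 to 2 in pNE_H against pNE, and against hPSC 2 to 3 in aNE_M and aNE_H, 3 to 4 in pNE_T and 2 to 4 in pNE_M.

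Without the fold limit the counts rose to 6 (aNE) and 4 (pNE) against hPSC at day 2, and at day 4 to 6, 6 and 7 (aNE_T, aNE_M, aNE_H) and 7, 6 and 5 (pNE_T, pNE_M, pNE_H). They were 2, 3, 2 and 3 for pNE against aNE at day 2 and in forebrain, midbrain and hindbrain medium, 4, 2 and 4 for aNE and 5, 3 and 4 for pNE from day 2 to those media, and 3, 2 and 2 for the interactions. Between media they were 2 and 2 in aNE-derived and 1, 2 and 3 in pNE-derived cells. Of 2727 refitted differences of single genes, 108 changed sign, and 0 of these had an adjusted p under 0.05 in either fit; 2 fell below the limits for a change and 15 passed them. The scalings moved the median of all genes by -0.078 to 0.082 (log2). With only the compared libraries, the number of all tested genes changed went from 655 to 355 (pNE against aNE), 1164 to 717 (pNE_H against aNE_H), 838 to 373 (aNE_H against aNE_M) and 857 to 473 (pNE_H against pNE_T). Depth is unknown, and 2 libraries a group limit the precision of every value.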
